A study of Mus musculus with 2 samples.

Results

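The receptors for glutamate, GABA and glycine were read in polyadenylated RNA from mouse midbrain at embryonic day 12.5. The set was defined by gene name: every protein-coding gene of the GENCODE M21 annotation named as a subunit of an AMPA (Gria), kainate (Grik), NMDA (Grin), delta (Grid) or metabotropic glutamate receptor (Grm), of a GABA-A (Gabra to Gabrr) or GABA-B receptor (Gabbr), or of a glycine receptor (Glra, Glrb). This gave 52 genes of 22028 protein-coding genes in the tables. The rule itself uses no measured value. The single group held 2 libraries from strain B6NCrl, healthy embryos of both sexes with no genetic change or treatment named, replicate 1 from a pool of 120 embryos and replicate 2 from a pool of 88. Each library was primed with oligo-dT and fragmented by tagmentation. There is no contrast between conditions, so the comparisons are among the receptor genes, between transcript models of a gene, and between the 2 pools. A pool averages over embryos and over all cell types of the dissected tissue. In such bulk RNA, fewer cells of a type and less RNA per cell cannot be told apart.

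Glutamate is the main fast excitatory transmitter of the brain, and GABA and glycine are the main inhibitory ones. Their ionotropic receptors are channels built from several subunits around a pore (tetramers for glutamate, pentamers for GABA and glycine), and the subunits chosen set the ion permeability, the kinetics and the drug response. The metabotropic glutamate receptors and the GABA-B receptor act through G proteins instead. In embryonic neurons, in which internal chloride is high, GABA and glycine can depolarize the cell, and both receptor classes are present before most synapses have formed.

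The libraries held 30274342 (replicate 1) and 38421860 (replicate 2) expected counts. Annotated genes accounted for 29056772 and 37122519 of them, and the 52 receptor genes for 19115 and 22068. The labelled tissue was checked with marker lists: 7 of 7 midbrain genes were detected, led by Otx2, against 1 of 8 hindbrain and spinal cord genes (Hoxb4 had 0 counts in both libraries). Markers of neighbouring and surrounding tissue were present too, with 5 of 6 telencephalic, 6 of 6 diencephalic, 8 of 8 ventral midbrain and 5 of 5 mesenchymal genes detected. Markers of postmitotic neurons (8 of 8) and of neural progenitors (7 of 7) were detected. Of the astrocyte and oligodendrocyte markers 3 of 5 were detected, from Mbp, the highest in replicate 1, with 15.94 and 15.62 TPM, to Gfap, not detected, with 0.04 and 0.02 TPM.

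The alternative exons of the AMPA subunits are shown first, because the transcript results below turn on them. Each AMPA gene carries a pair of mutually exclusive coding exons, flip and flop, that form part of the extracellular domain next to the last membrane segment and change how fast the channel desensitizes. In each gene there are exactly 2 exons of 115 bases, and these are the pair. The exon with an unbroken run of glycine codons near its 3′ end was taken as flop, from textbook knowledge of the flop peptide, and in all 4 genes it is the upstream exon of the pair. The sequences below are those of the GENCODE M21 transcripts on assembly mm10, 5′ to 3′ on the transcribed strand, with capitals at the bases that differ between flip and flop of the same gene.
Gria1 flip, chr11:57310608-57310722, plus strand: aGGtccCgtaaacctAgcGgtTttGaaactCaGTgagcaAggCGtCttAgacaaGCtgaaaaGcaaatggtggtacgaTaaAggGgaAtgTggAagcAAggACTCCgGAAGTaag
Gria1 flop, chr11:57309769-57309883, plus strand: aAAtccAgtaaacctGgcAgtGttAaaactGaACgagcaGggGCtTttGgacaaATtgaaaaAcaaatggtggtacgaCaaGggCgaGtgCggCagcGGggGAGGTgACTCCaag
Gria2 flip, chr3:80690404-80690518, minus strand: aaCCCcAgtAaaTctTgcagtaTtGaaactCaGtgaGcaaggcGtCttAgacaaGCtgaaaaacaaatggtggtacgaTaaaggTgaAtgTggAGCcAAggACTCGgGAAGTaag
Gria2 flop, chr3:80691320-80691434, minus strand: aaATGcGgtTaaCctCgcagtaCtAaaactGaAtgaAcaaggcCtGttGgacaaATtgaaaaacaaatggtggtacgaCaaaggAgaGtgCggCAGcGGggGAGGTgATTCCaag
Gria3 flip, chrX:41669501-41669615, plus strand: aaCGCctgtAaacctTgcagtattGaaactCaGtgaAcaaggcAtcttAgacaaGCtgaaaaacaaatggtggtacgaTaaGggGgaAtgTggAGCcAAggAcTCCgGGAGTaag
Gria3 flop, chrX:41654810-41654924, plus strand: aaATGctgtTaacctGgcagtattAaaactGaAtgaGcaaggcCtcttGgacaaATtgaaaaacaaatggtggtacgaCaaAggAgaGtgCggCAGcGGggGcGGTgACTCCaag
Gria4 flip, chr9:4427030-4427144, minus strand: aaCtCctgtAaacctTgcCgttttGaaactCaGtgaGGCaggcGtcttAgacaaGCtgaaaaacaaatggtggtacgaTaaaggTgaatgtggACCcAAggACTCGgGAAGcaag
Gria4 flop, chr9:4432773-4432887, minus strand: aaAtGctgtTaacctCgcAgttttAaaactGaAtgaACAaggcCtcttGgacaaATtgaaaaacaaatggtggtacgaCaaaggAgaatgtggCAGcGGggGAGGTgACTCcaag
Flip and flop of one gene differed at 36 bases in Gria1 and Gria2, 32 in Gria3 and 31 in Gria4. A flip exon was closer to the flip exons of the other 3 genes (87.8 to 92.2% of bases identical) than to its own flop exon (68.7 to 73.0%), and the same held for flop (87.8 to 94.8%). An exon is therefore told from its alternative by many bases.

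Most of the receptor genes were detected at this stage, at modest levels. Levels are TPM, deposited transcript abundance per length and per library, and a gene was called detected at 1 TPM or more in both libraries. By this limit 34 of the 52 receptor genes, 65.4%, were detected, beside 59.4% of all protein-coding genes, a share close to that background. The limit was passed by 35 genes in each library, and 2 genes passed it in 1 library only. The receptor genes reached a median of 2.41 TPM against 4.47 TPM over all protein-coding genes, and the 34 detected ones reached 4.85 TPM against 22.2 TPM over detected protein-coding genes. At 5 TPM or more in both libraries there were 15 receptor genes, and at 10 TPM or more there were 9. No count was assigned to Gabra6 or Grm6 in either library.

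**Figure D1:**
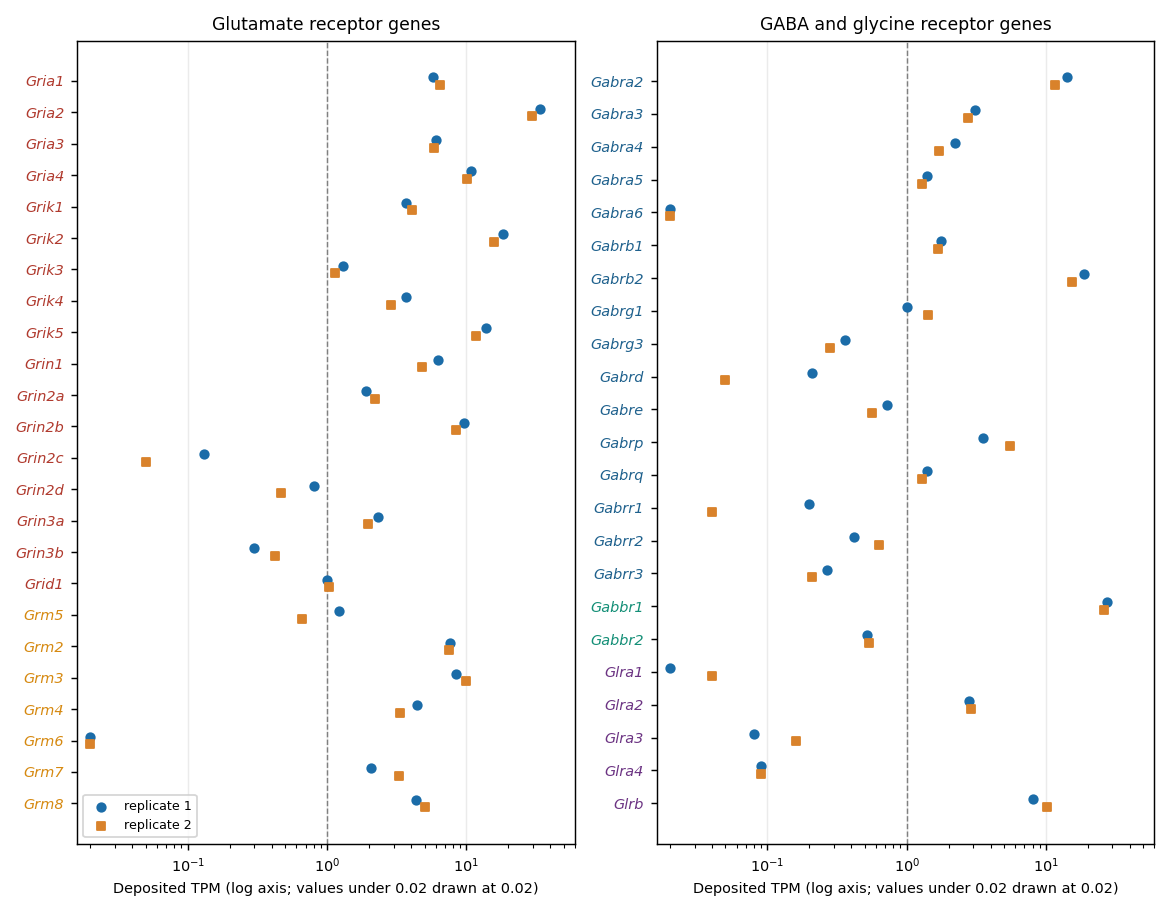
Deposited TPM of 47 receptor genes on a log axis, 1 circle for replicate 1 and 1 square for replicate 2, with gene names coloured by receptor class and the dashed line at 1 TPM. Gria2 and Gabbr1 lie farthest right, between 26.20 and 33.73 TPM, while Grm6 and Gabra6 have 0 counts.

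By class, the 18 ionotropic glutamate receptor genes took 41.4% ± 0.411 (SD, n = 2) of the summed receptor TPM and the 19 GABA-A genes took 34.1% ± 1.78. The 8 metabotropic glutamate receptor genes followed with 10.5% ± 1.01, the 2 GABA-B genes with 9.68% ± 0.338 and the 5 glycine receptor genes with 4.34% ± 0.841. The last 3 classes kept this order in both libraries. Glutamate and GABA receptor transcripts were thus both abundant within the set, and glycine receptor transcripts were the smallest part.

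All 4 AMPA receptor genes were detected, and they made the largest family, with 54.0 ± 3.15 TPM in sum. Gria2 (chr3:80681450-80802835), whose edited form makes the channel impermeable to calcium, led with 33.73 TPM in replicate 1 and 29.37 TPM in replicate 2, or 58.3% ± 2.31 of the AMPA total. Gria4 (chr9:4417896-4796234), an early-expressed subunit, followed with 10.76 and 10.15 TPM. The remaining pair, Gria1 with 5.71 and 6.48 TPM and Gria3 with 6.06 and 5.81 TPM, overlapped between the libraries and cannot be ordered over all models. The lead of Gria2 in TPM rests in part on transcript models that do not encode the full receptor. Restricted to the models annotated as protein-coding and tagged basic, GENCODE's mark for representative transcripts (called basic coding models from here on), Gria2 was at 12.01 and 9.52 TPM. Gria4 was at 10.76 and 10.15 TPM on the same models, so that the ranges of the 2 genes overlap there and the Gria2 share was 35.4% ± 3.55. That Gria4 value includes a shortened coding model, Gria4-203, that ends before the flip and flop exons. On basic coding models that hold either exon, a setting chosen after seeing the data, Gria4 was at 3.72 and 3.43 TPM. Gria2 was unchanged there at 12.01 and 9.52 TPM, 45.9% ± 4.17 of the AMPA total, with no overlap. On both of these restricted sets of models Gria1, at 5.27 and 5.24 TPM, lay above Gria3, at 3.61 and 4.00 TPM.

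Among the kainate receptor genes, all 5 were detected. Grik2 (chr10:49094833-49788766), a pore-forming subunit that can work alone, was highest with 18.22 and 15.80 TPM, 44.6% ± 0.237 of the family. Grik5 (chr7:25009849-25072346), an obligate partner that needs such a subunit, had 13.82 and 11.72 TPM, or 33.5% ± 0.705. The other high-affinity partner, Grik4, was at 3.66 and 2.85 TPM. Grik1, pore-forming like Grik2, was at 3.71 and 4.05 TPM, and Grik3, of the same kind, was the lowest at 1.29 and 1.14 TPM. The pair of Grik2 with Grik5 thus held most of the kainate total in both libraries, and Grik1 lay just above Grik4 in TPM. On basic coding models Grik5 was at 7.63 and 4.36 TPM, 21.9% ± 4.45 of the family, and Grik1, at 2.05 and 1.12 TPM, lay below Grik4, at 3.66 and 2.85 TPM, while Grik2 took 55.7% ± 5.15.

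Of the NMDA receptor genes, 4 of 7 were detected. Grin1, the glycine-binding subunit that every NMDA receptor requires, was at 6.28 and 4.81 TPM. Grin2b (chr6:135713233-136173511), the glutamate-binding subunit typical of embryonic brain, was listed at 9.53 and 8.37 TPM, and Grin2a, which replaces much of it after birth, at 1.91 and 2.19 TPM. Grin2d was at 0.80 and 0.47 TPM and Grin2c, known from the mature cerebellum, at 0.13 and 0.05 TPM. Grin2b thus held 76.3% ± 1.06 of the GluN2 total. Grin3a, a glycine-binding subunit that lowers calcium entry, was at 2.33 and 1.95 TPM, against 0.30 and 0.42 TPM for its relative Grin3b. Because 32.1% of the exonic bases of Grin3b overlap the opposite-strand gene Tmem259 (14.7 and 16.4 TPM) and the strand setting of the counting was not given, the Grin3b value is uncertain.

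The Grin2b level in TPM is carried by a short model. Grin2b-207, a processed transcript of 241 bases, was given 14.8 and 14.9 expected counts, out of 378 and 430 for the gene, yet 58.7% and 53.3% of the gene's TPM, since division by a short length inflates a small count. The basic coding models of Grin2b came to 1.82 and 1.96 TPM. On those models Grin2a fell to 0.29 and 0.20 TPM and Grin2d was at 0.54 and 0.42 TPM. Grin2b thus still held the largest GluN2 share, 70.0% ± 6.40, with Grin2d second at 17.7% ± 2.44. The Grin2d value is uncertain too, since 9.66% of its exonic bases overlap the opposite-strand gene Gm45441 (0.940 and 0.450 TPM). The 8 coding models of Grin1, which differ by a 5′ exon and by the C terminus, could not be told apart: for the 3 with the most counts, Grin1-205, Grin1-201 and Grin1-202, the deposited interval of TPM reached 0.00 in at least 1 library.

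Of the delta receptor genes, whose products bind glycine or D-serine and act at synapses through cerebellin ligands, Grid1 stood at the limit, with 0.99 and 1.03 TPM. It is among the longest genes of the set and spans 763 kb.

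The metabotropic glutamate receptors were led by group II, which lowers cyclic AMP. Grm3 (chr5:9485541-9725170) was at 8.37 and 9.85 TPM and Grm2 (chr9:106643095-106656082) at 7.67 and 7.53 TPM, both entirely on basic coding models. In group III, which also couples to inhibitory G proteins and is mostly presynaptic, Grm8 was at 4.34 and 5.03 TPM, Grm4 at 4.38 and 3.31 TPM and Grm7 at 2.05 and 3.29 TPM. The order of Grm8 and Grm4 reverses between the libraries. Grm7 was below both in each library, but in replicate 2 its deposited interval of TPM (2.84 to 4.30) overlapped that of Grm4 (3.15 to 4.24). On basic coding models Grm4, at 3.76 and 3.16 TPM, lay above Grm8, at 2.40 and 2.40 TPM, in both libraries. Grm6, the receptor of retinal bipolar cells, had 0 counts in both libraries. For this gene 3 counts would be 0.0495 and 0.0392 TPM, and the deposited upper bounds were 0.167 and 0.132 TPM. Grm5, a group I receptor that raises internal calcium, had 1.22 and 0.66 TPM and passed the limit in replicate 1 only. On basic coding models it was at 0.48 and 0.51 TPM, under the limit in both libraries.

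**Figure D2:**
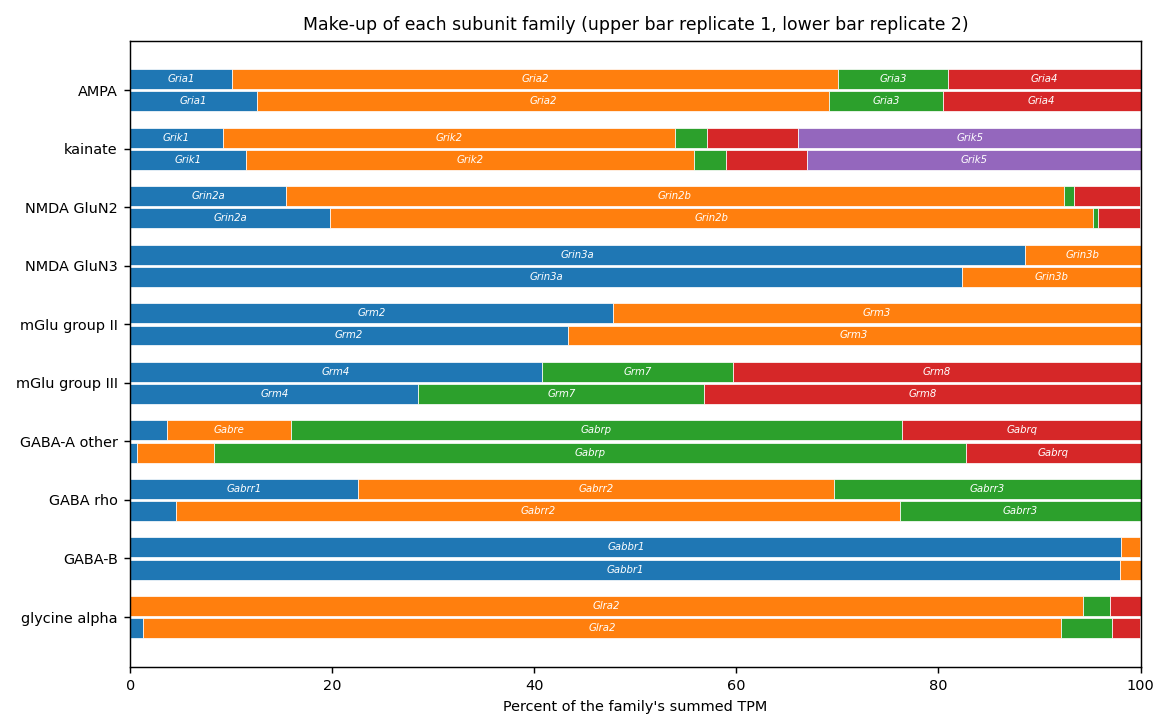
Percent of each family's summed TPM taken by each subunit gene, for 10 families with more than 1 gene, with the upper bar of each pair for replicate 1 and the lower for replicate 2. In both bars Gabbr1 and Glra2 take over 90% of their families, and Gria2 takes 60% and 56.7% of the AMPA sum.

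GABA-A receptors are usually pentamers of alpha, beta and gamma subunits. Of the alpha genes 5 of 6 were detected. Gabra2 (chr5:70957597-71095849), abundant in embryonic brain, was highest with 14.22 and 11.62 TPM, or 53.4% ± 0.889 of the alpha total. Gabra3 was at 3.11 and 2.77 TPM, Gabra4 at 2.21 and 1.71 TPM and Gabra5 at 1.41 and 1.28 TPM. Over all models, the order of these 4 genes was the same in both libraries with no overlap between neighbours. On basic coding models Gabra4, at 1.74 and 0.98 TPM, and Gabra5, at 1.40 and 1.28 TPM, overlapped and cannot be ordered. Gabra6, a subunit of cerebellar granule cells, had 0 counts in both libraries. For this gene 3 counts would be 0.0782 and 0.0620 TPM, and the deposited upper bounds were 0.174 and 0.138 TPM.

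The share of Gabra2 depends on the models counted. A model annotated as a target of nonsense-mediated decay, Gabra2-204, took 48.7% and 43.2% of the Gabra2 TPM. On basic coding models Gabra2 was at 4.52 and 3.62 TPM, or 29.7% ± 0.688 of the alpha total, and Gabra3, all of it on such models, stood at 3.11 and 2.77 TPM. Gabra2 thus remained above Gabra3 there, by a smaller margin.

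All 3 beta genes were detected. Gabrb2 (chr11:42419757-42629028) was at 18.80 and 15.35 TPM, or 54.8% ± 2.66 of the beta total, and Gabrb1 at 1.76 and 1.68 TPM. In expected counts, which are not corrected for length, Gabrb2 held 46.6% of the beta total. Of the gamma genes, Gabrg1 was at 1.00 and 1.42 TPM and Gabrg3 at 0.36 and 0.28 TPM.

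Of the remaining GABA-A genes, Gabrp and Gabrq were detected. Gabrp, the pi subunit, known mainly from epithelia and reproductive tissue, was at 3.55 and 5.53 TPM and Gabrq, the theta subunit of monoaminergic neurons, at 1.39 and 1.28 TPM. Gabre (epsilon) was at 0.72 and 0.56 TPM and Gabrd, the delta subunit of extrasynaptic receptors, at 0.21 and 0.05 TPM with 7 and 2 counts. None of the rho genes, which form the GABA receptors of the retina, was detected. Gabrr2 had 0.42 and 0.63 TPM, Gabrr3 0.27 and 0.21 TPM and Gabrr1 0.20 and 0.04 TPM, on no more than 21 counts each.

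The GABA-B receptor is an obligate pair of proteins from different genes: the Gabbr1 product binds GABA, and the Gabbr2 product couples to the G protein and carries the pair to the cell surface. Their transcripts stood far apart here. Gabbr1 (chr17:37045966-37075067) was at 27.39 and 26.20 TPM on 1589 and 2117 counts. Gabbr2 (chr4:46662305-46991873) was at 0.52 and 0.54 TPM on 55.0 and 67.0 counts. Gabbr1 thus held 98.1% ± 0.111 of the pair's TPM, 97.7% ± 0.122 on basic coding models and 96.8% of the counts, so the gap was present in each of these measures. The 2 longest coding models of Gabbr1 took 38.1% and 47.2% (Gabbr1-201) and 13.5% and 12.4% (Gabbr1-203) of its TPM. Its basic coding models also include the shortened Gabbr1-202, with 14.2% and 17.0%, and Gabbr1-209, with 11.0% and 4.85%. These have 3 and 4 exons, against 23 in Gabbr1-201, and end at chr17:37049467, well before the end of the gene.

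Among the glycine receptor genes, the beta subunit gene Glrb, which binds the scaffold gephyrin, was highest with 8.12 and 10.11 TPM. Glra2, the alpha subunit typical of fetal tissue, was at 2.79 and 2.91 TPM from a single model and held 92.6% ± 2.35 of the alpha total. Glra3 was at 0.08 and 0.16 TPM, Glra4 at 0.09 and 0.09 TPM, and Glra1, the adult spinal form, at 0.00 and 0.04 TPM on 0 and 2 counts, so that the floor of 3 counts is above the Glra1 values.

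Many of these genes lie side by side. With neighbours joined at gaps of at most 1000 kb, 18 of the 52 fell into 6 clusters. On chromosome 5, Gabrg1, Gabra2, Gabra4 and Gabrb1 in 1398 kb were all detected, and Gabra2 took 74.1% and 70.7%. On the X chromosome, Gabra3 took 59.6% and 60.1% of a cluster with Gabre and Gabrq. The Gabrr1 and Gabrr2 cluster on chromosome 4 had no detected gene, and Gria2 and Glrb share 232 kb of chromosome 3. Within these clusters, then, the members differed widely in level.

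The receptor genes are long. Their median genomic span was 130 kb against 17.3 kb over all protein-coding genes, and 28 of them, 53.8%, exceeded 100 kb against 11.3% of all protein-coding genes. Detected receptor genes had a median span of 204 kb, those not detected 39.7 kb, and detected protein-coding genes in general 25 kb.

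In the AMPA genes, models with the flip exon exceeded models with the flop exon. Counted as a share of the TPM of models that hold 1 of the 2 exons, flip made up 95.6% and 95% for Gria1, 81.8% and 77.3% for Gria2, and 72.6% and 71.7% for Gria4. For Gria3 it was 100% and 85%, the flop models having 0 counts in replicate 1 and 43 in replicate 2. The means were 95.3% ± 0.423, 79.6% ± 3.21, 72.2% ± 0.608 and 92.5% ± 10.6 in that order of genes. By these point estimates flip was the larger class in all 4 genes and both libraries. The deposited intervals do not separate the models of Gria4. Those of the flip model Gria4-202 (1.42 to 3.21 and 1.28 to 2.94 TPM) overlapped those of the flop model Gria4-201 (0.00 to 1.46 and 0.00 to 1.34 TPM). The size of the share depends on how it was estimated. The Gria2 flop model, Gria2-201, is 10371 bases long and the flip model, Gria2-202, is 4026, chiefly through their 3′ ends, and in expected counts flip made up 59.9% of the pair for Gria2. For Gria2, exon choice and use of the 3′ end therefore cannot be told apart. With the M4 tables, flip made up 82.6% for Gria4.

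A large part of AMPA transcript abundance lay in models that reach neither exon. For Gria2, 55.4% and 58.2% of TPM fell on 5 retained-intron models that end upstream, the largest being Gria2-206 with 37.9% and 37.8%. A further 8.96% and 9.36% fell on a model with both exons, annotated as a target of nonsense-mediated decay. For Gria4, a coding model of 11 exons that ends before the flip and flop exons, Gria4-203, took 65.4% and 66.2%. For Gria3 such models took 29.5% and 21.1%, and for Gria1 7.71% and 19.1%, on 2 and 5 counts. Truncated models thus weighed most in Gria2 and Gria4 and least, in counts, in Gria1.

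**Figure D3:**
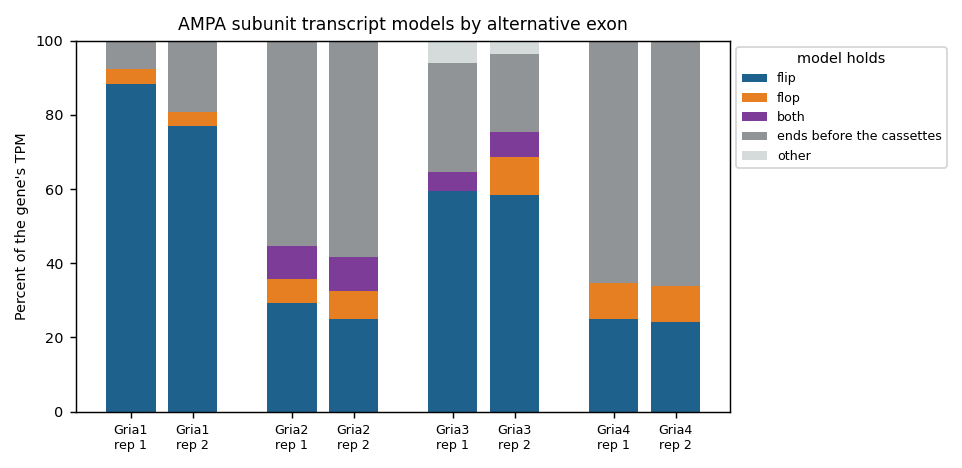
Percent of each AMPA gene's TPM, by library, on transcript models that hold the flip exon, the flop exon, both, or neither because they end upstream ("ends before the cassettes") or, in Gria3 alone, reach the position without either exon at its 115-base bounds ("other"). Flip exceeds flop in every bar, and the part that ends upstream is largest for Gria4 (65.4% and 66.2%) and Gria2 (55.4% and 58.2%).

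Across the set, the transcript models mattered for levels. Of the 34 detected receptor genes, 6 had less than 50% of their TPM in basic coding models in both libraries, among them Gria2, Grin2a, Grin2b, Gabra2 and Gabrb1. On basic coding models alone 30 genes passed the detection limit, with Grin2a, Gabra4, Gabrb1 and Gabrg1 lost. Between the annotations, 33 of the 34 detected genes had M4 and M21 levels within 1.5-fold of each other. Grin2b was the exception, with 5.71 and 5.03 TPM in the M4 tables, 0.600 of its M21 mean.

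**Figure D4:**
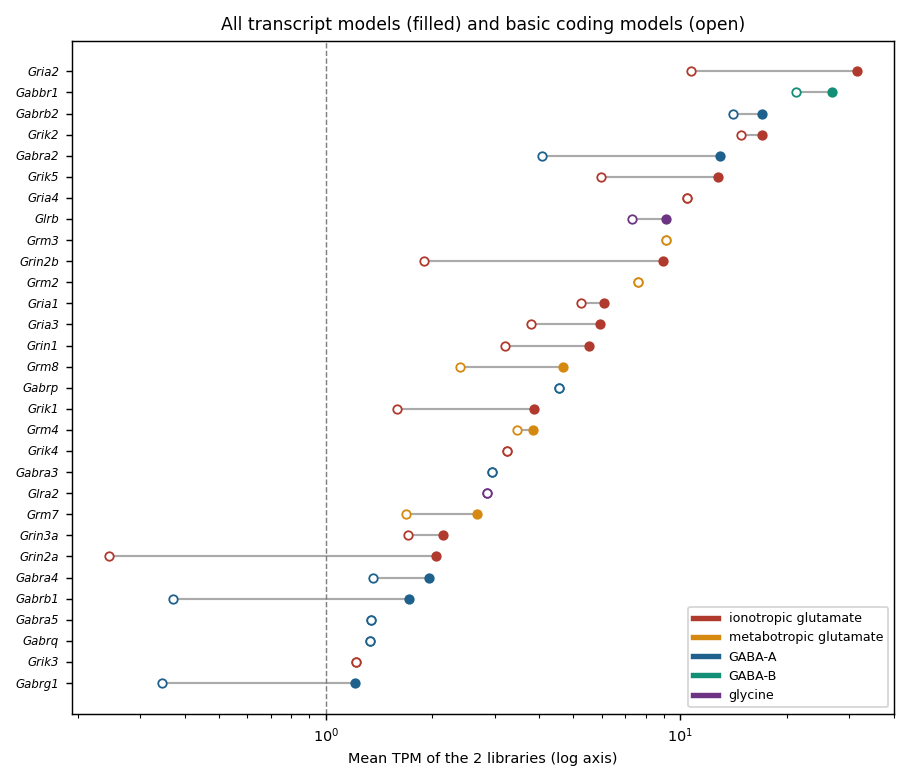
Mean TPM of the 2 libraries for 30 detected receptor genes, over all transcript models (filled) and over basic coding models (open), on a log axis with the dashed line at 1 TPM. Grin2a, Gabrb1 and Gabrg1 cross the line, and Gria2, Gabra2 and Grin2b shift far to the left while Gria4, Grm2 and Grm3 stay in place.

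Between the pools, a 2-fold difference was rare among the receptor genes, as it was among all genes. Ratios are log2 of replicate 1 over replicate 2 on scaled counts, with a 95% interval that covers counting error only, since each pool gave 1 library. PCR copies were not separated by molecular identifiers. A ratio was available for the 46 receptor genes that reached 10 counts in either library. Only Gabrg3 differed by more than 2-fold with equality outside its interval, 1 of 46 beside 4.23% of all 19885 genes with a ratio. It rests on 25 and 15 counts (log2 ratio 1.10, interval 0.12 to 2.13) in a gene under 1 TPM, and no receptor gene passed when 50 counts were required or when the spike-ins set the scale. Apart from the thinly counted Grin2c (log2 ratio 1.36, interval −0.32 to 3.26), the estimates of the other receptor genes lay within 2-fold.

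Smaller differences leaned towards replicate 1. The interval lay above equality for 13 genes, 28.3% of those with a ratio, beside 15.5% of all genes, and below it for 4 genes, 8.70%, beside 16.7% of all genes. The receptor median was 0.19 and the median of all genes −0.01. The summed receptor counts gave 0.16 (interval 0.13 to 0.18). Among the 13 were Gria2, Grik2, Grik4, Grik5, Grin3a, Grm4, Gabra2, Gabra4, Gabrb2 and Gabrg3. Gabra2 had 1038 and 1007 counts (log2 ratio 0.41, interval 0.28 to 0.53) and Gria2 had 2599 and 2843 (0.23, 0.16 to 0.31). With ERCC spike-ins setting the scale, the median of all genes moved to −0.28, the receptor median became −0.08, and 1 receptor gene was higher in replicate 1 against 11 in replicate 2, beside 2.14% and 60.7% of all genes. The direction thus holds relative to other genes and flips on the spike-in scale.

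Marker levels moved between the pools as well. Over all genes with a ratio, 15.5% were higher in replicate 1. Where counts are many, an interval excludes equality at a small ratio. All 8 markers of postmitotic neurons were detected, with 1951 and 1843 TPM in sum and 7 higher in replicate 1 (median log2 ratio 0.13). The 5 GABAergic neuron markers came to 168 and 162 TPM with 4 higher in replicate 1 (median 0.19). Telencephalic markers came to 133 and 108 TPM with 5 of 6 higher in replicate 1 (median 0.85), and diencephalic markers to 550 and 375 TPM with 5 of 6 higher there (median 0.34). Neural progenitor markers came to 2858 and 2869 TPM, with 4 of 7 higher in replicate 1 and 1 in replicate 2 (median 0.10). No marker of these lists was at 0. The part of these differences in the receptor ratios was not tested.

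The 4 receptor genes higher in replicate 2 were Gabrp, Grm7, Glrb and Grm3. Gabrp had 211 and 415 counts (log2 ratio −0.61, interval −0.86 to −0.37) and Grm7 had 140 and 261 (−0.54, −0.84 to −0.23). Glrb had 407 and 628 counts (−0.26, −0.45 to −0.08) and Grm3 had 461 and 685 (−0.21, −0.38 to −0.04). Markers of the ventral midbrain and floor plate moved the same way, with 86.6 and 136 TPM in sum, 6 of 8 higher in replicate 2 (median −0.58) and none at 0. So did all 5 mesenchymal markers, with 819 and 1183 TPM (median −0.50), and 6 of 9 surface epithelium markers, a list written after the Gabrp values were seen, with 33.2 and 41.8 TPM (median −0.41) and again none at 0. Of the midbrain markers 5 of 7 were higher in replicate 2 (247 and 242 TPM, median −0.37), as were 3 of 4 vessel markers (63.7 and 70.9 TPM, median −0.24) and 3 of 4 red cell markers (8564 and 9896 TPM, median −0.19). Over all genes with a ratio, 16.7% were higher in replicate 2. The part of these markers in the 4 receptor ratios was not tested.

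**Figure D5:**
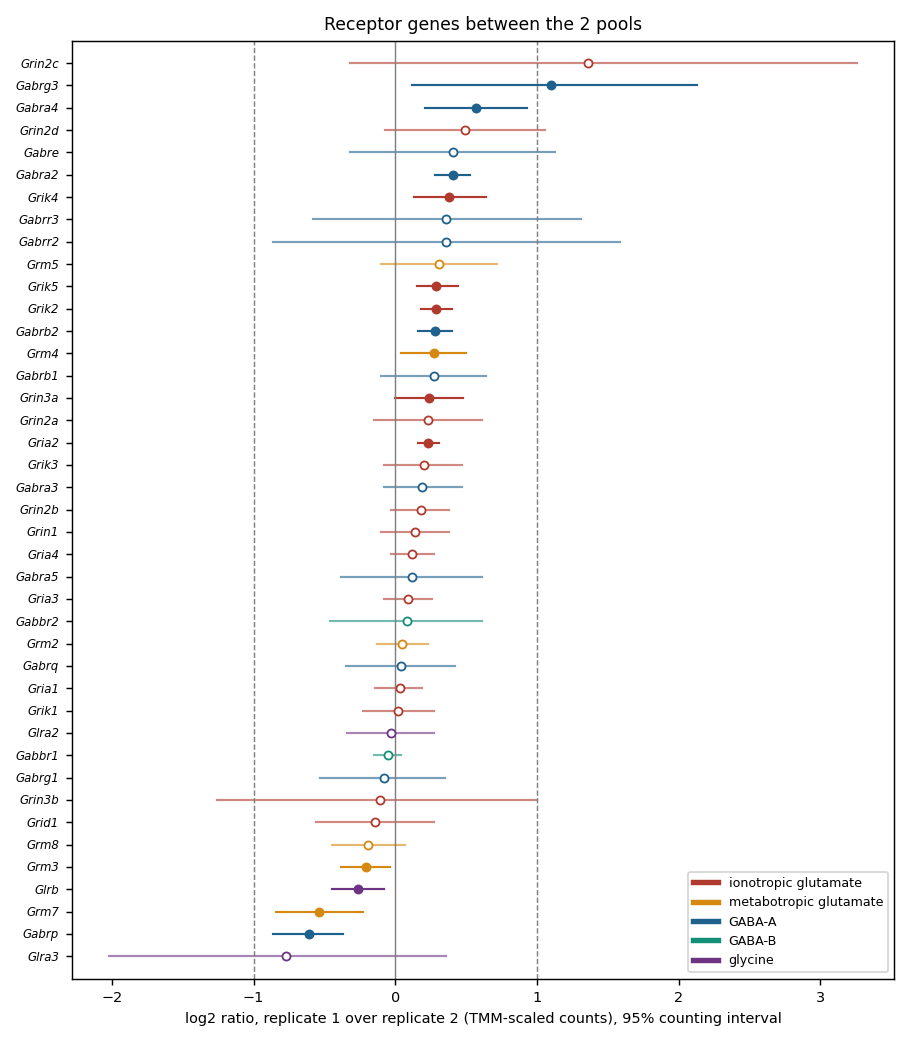
Log2 ratio of replicate 1 over replicate 2 for 41 receptor genes with a ratio, with 95% counting intervals, coloured by receptor class and filled where the interval excludes equality. The dashed lines mark 2-fold differences, and 10 filled points lie to the right of 0 and 4 to the left.

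By class, 5 of 18 ionotropic glutamate receptor genes and 6 of 16 GABA-A genes with a ratio were higher in replicate 1, beside 15.5% of all genes, with medians of 0.19 and 0.27. On the spike-in scale these counts were 0 and 1. The 7 metabotropic genes with a ratio divided evenly, 2 each way (median 0.05). Neither GABA-B gene had an interval excluding equality, and Gabbr1, on 1589 and 2117 counts, had a ratio of −0.05 (interval −0.15 to 0.04). The intervals of the remaining 29 receptor genes included equality, which does not show that they were equal.

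The partner proteins of these receptors were read from a list of 57 genes. By the same limit 54 were detected, 94.7% beside 59.4% of all protein-coding genes, and the exceptions were Cnih3, Shisa6 and Neto1. The list was chosen by known role with earlier results of these data known, so the higher share is no result about receptor partners. None passed a 2-fold ratio between the pools, beside 4.23% of all genes. Intervals excluded equality for 15 genes higher in replicate 1, 26.3% beside 15.5% of all genes, and 6 higher in replicate 2, 10.5% beside 16.7%, with a median of 0.05. On the spike-in scale these counts were 1 and 28, beside 2.14% and 60.7% of all genes.

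AMPA receptor auxiliary and biogenesis genes were led by Cnih2, a cornichon that carries AMPA subunits out of the endoplasmic reticulum, with 182.52 and 153.85 TPM, well above the summed AMPA subunits. The lowest mean of that group was that of Shisa6, with 0.62 and 1.30 TPM, although Cacng5 and Cacng3 were below it in replicate 2. Of the kainate auxiliary genes, Neto2 was at 37.53 and 34.79 TPM and Neto1 at 0.63 and 0.69 TPM. Postsynaptic scaffold genes ran from Homer3, with 76.43 and 78.06 TPM, to Grip2, with 1.57 and 1.65 TPM, and all 15 were detected.

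All 4 genes for ligands of delta receptors were detected, from Cbln2, with 23.29 and 19.62 TPM, to Cbln4, with 2.22 and 1.86 TPM. Srr, which makes the NMDA co-agonist D-serine, was at 21.01 and 22.03 TPM. Of the genes for GABA-A and glycine receptor clustering and traffic, Gabarap, a trafficking protein also used in autophagy, was highest with 421.57 and 444.78 TPM and Nlgn2, an adhesion protein of inhibitory synapses, lowest with 11.13 and 11.11 TPM. Gphn, the gephyrin scaffold, was at 15.98 and 18.45 TPM.

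The auxiliary genes of GABA-B receptors were detected with Gabbr2 below the limit. Kctd12, which speeds desensitization of that receptor, was at 6.62 and 9.84 TPM (log2 ratio −0.70, interval −0.87 to −0.54) and Kctd16 at 3.27 and 2.60 TPM. The chloride transporters stood close together. Slc12a5, which extrudes chloride and makes GABA hyperpolarizing, was at 7.56 and 6.36 TPM, and Slc12a2, which imports chloride, at 5.97 and 6.60 TPM, with the order reversed between the libraries. Among genes for editing and splicing of receptor transcripts, Ptbp2 (271.03 and 269.08 TPM) was above Ptbp1 (154.66 and 158.21 TPM), the regulator it replaces as neurons form, and Adarb1, the enzyme that edits Gria2, was lowest with 8.07 and 7.29 TPM.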

How the data were processed

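Gene and transcript tables of 2 midbrain libraries against M21, with M4 as an alternative, were used on mm10. Per the file headers, the authors deposited an expected count (an estimated number of reads, not scaled), TPM, the percent of a gene's TPM on each transcript, and lower and upper bounds of TPM, a signal range whose level is not given. Aligner, quantification tool and strand setting: not given in the sources used here. Names and exons came from GENCODE M21.

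Rows naming no gene, 4.02% and 3.38% of counts, were left out of scaling. Expected counts were rounded and scaled by TMM (edgeR 4.0.16, R 4.3.3) over all genes, with DESeq2 1.42.0 size factors, gene totals and spike-in totals as alternatives. Ratios carry exact conditional binomial (Clopper-Pearson) 95% intervals, for genes reaching 10 counts in either library. The procedure was run on simulated Poisson counts, the error that the interval assumes. That run does not cover PCR copies or differences between pools. Counts of the receptor genes limit precision: a level of 3 counts is given as the floor. Each pool gave 1 library, so pools were compared without a test.

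Flip and flop exons are not named in the annotation and were told apart by sequence. Reads of overlapping genes, and of 8 receptor genes with fractional counts, are divided by a model. Some receptor genes and 1 marker are not reported here by name and enter only the counts, medians and sums. Of the partner genes, the highest and lowest of each group and those past 2-fold, with Gphn, Ptbp1, Slc12a2 and Kctd12 added for their roles. The members and lists were chosen with earlier results of these data known.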

Additional observations from a re-analysis of the deposited data

How the results depend on the processing

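Of the values recomputed under other settings, 63 stayed within the spread or counting error or, for counts of genes, within 1.5-fold, and 23 moved further. The 63 include shares recomputed from 1 library alone. With 2 libraries such a share always lies within the SD of the mean, so it could not have moved and shows no stability. Receptor genes detected numbered 38 at 0.5 TPM, 26 at 2 TPM and 30 on basic coding models, against 34. Receptor genes past 2-fold between the pools numbered 0 on the spike-in scale, 0 with at least 50 counts, 2 with at least 1 count (Gabrg3 and Gabrr1) and 2 at a fold limit of 1.5 (Gabrg3 and Gabrp), against 1. The median receptor ratio changed sign to −0.08 on the spike-in scale, 0.12 as log2(TPM + 0.1) and 0.07 as log2(TPM + 1), against 0.19. On basic coding models, a setting chosen after seeing the data, the family shares were 35.4% for Gria2 (45.9% on those that hold the flip or flop exon), 55.7% for Grik2, 70.0% for Grin2b, 29.7% for Gabra2 and 97.7% for Gabbr1. With the M4 tables they were 45.4% for Grik2, 68.8% for Grin2b and 56.5% for Gabra2, and as shares of expected counts 45.5%, 68.7% and 56.5% for these genes, 46.6% for Gabrb2 and 96.8% for Gabbr1. The flip share was 59.9% for Gria2 in transcript counts, also chosen after seeing the data, and 82.6% for Gria4 with the M4 tables. Beyond the models counted and the lengths divided by, the cause of these shifts was not tested. With 2 libraries the SD is poorly known, and low counts limit the ratios of the least abundant genes.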
